A study of Arabidopsis thaliana with 6 samples.

Results

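The transcripts described here are those of the Arabidopsis mitochondrial genome that the ATH1 array measures under their gene names. A probe set was taken as a member when the deposited table named it with a gene name instead of a nuclear locus code, and that name began with orf, nad, cox, cob, ccb, matR or atp and a digit. The rule found 74 of 22808 probe sets. Of these, 15 stand for known genes and 59 for open reading frames (ORFs), most of which are named only by the number of amino acids they could encode. No probe set had a name in cob or in atp and a digit. A RefSeq gene symbol of assembly TAIR10.1 could be matched to 16 members, under later names for some of them: ccb206 is ccmB, ccb382 is ccmFN1, ccb452 is ccmFC, ccb203 is ccmFN2 and orfX is mttB. Both nad5.1 and nad5.2 stand for nad5.

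RNA came from the leaves of Arabidopsis thaliana seedlings, 2 weeks old, raised on agar plates with 1.5% sucrose at 16 h of light at 22 °C and 8 h of dark at 20 °C, after the seeds had been kept for 3 days at 4 °C. Each genotype had 3 arrays. The mutant, essp3, has a lesion in BRAHMA (BRM), which encodes the ATPase of a chromatin remodeller of the SWI/SNF type; the labels call the allele brm5 in the sample titles and brm-6 in the extraction protocol, and do not describe the lesion. The wild type (WT) is the reporter line ProβCG:GUS, in which a seed storage protein promoter drives β-glucuronidase, and the screen that gave essp3 was run in that reporter line. The labels call the 3 samples of each genotype biological replicates, so the p-values below measure the spread between those samples. The mutant is a single line, and each sample is whole leaf tissue.

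Plant mitochondria keep a small genome of their own. It encodes a few subunits of the respiratory complexes, some ribosomal proteins, factors that mature cytochrome c and a splicing maturase, together with many ORFs of unknown function. Phage-type RNA polymerases encoded in the nucleus transcribe it, and the transcripts are then spliced, edited and trimmed by nuclear-encoded proteins. Most other subunits of the respiratory chain come from nuclear genes. In plant mitochondria a poly(A) tail marks a transcript for decay, so steady-state transcripts carry few tails. No label or header names the primer used for labelling.

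Signals are MAS5 values, a linear brightness per probe set that the authors scaled to a mean of 1000 on each array. MAS5 also calls each probe set Present, Marginal or Absent, and between 12863 and 13761 probe sets were Present per array. Log2 signals correlated at 0.961 to 0.978 within a genotype and at 0.899 to 0.936 between genotypes. The array names in the table header share 1 code among the essp3 arrays and another among the WT arrays, so the array series behind those codes and genotype cannot be told apart. BRM itself read 788, 877 and 1087 in essp3, against 833, 823 and 647 in WT (adjusted p = 0.278), which does not check the genotype because the lesion is not described. The 25S ribosomal RNA control read 464, 371 and 483 on the essp3 arrays, against 4792, 7797 and 4149 on the WT arrays, and its part in the results below was not tested. The ratio of 3′ to 5′ signal of the GAPDH control was 1.44 to 1.70 in essp3 and 1.68 to 1.83 in WT; that of actin was 2.57 to 2.86 in essp3 and 2.29 to 2.61 in WT. All 3 leaf markers on the array were Present on all 6 arrays, with summed signals of 146511 to 150273 in essp3 and 131734 to 156254 in WT. Of 4 root markers, 3 had no Present call, and the summed signal was 192 to 242 in essp3 and 172 to 225 in WT. Of 5 seed storage genes, 4 had no Present call; the summed signal was 212 to 407 in essp3, where SESA2 was Present, and 56.8 to 221 in WT.

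Many of the mitochondrial probe sets were not detected in leaves of either genotype. Of the 74, 39 had no Present call on any array: ccb203, matR and nad7 among the known genes, and 36 ORFs. Their signals lay between 1.46 and 155. Another 13 were Present on 1 or 2 arrays, and 12 were Present on all 6. Those 12 were nad3, nad4, nad9, cox1, ccb382 and ccb452 among the known genes, and orf107c, orf111b, orf111d, orf114, orf149 and orf240a among the ORFs. Testing required a Present call on at least 3 of the 6 arrays, which held for 9 of 15 known genes (60%) and for 13 of 59 ORFs (22.0%). Over the whole array the share was 59.9%.

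**Figure D1:**
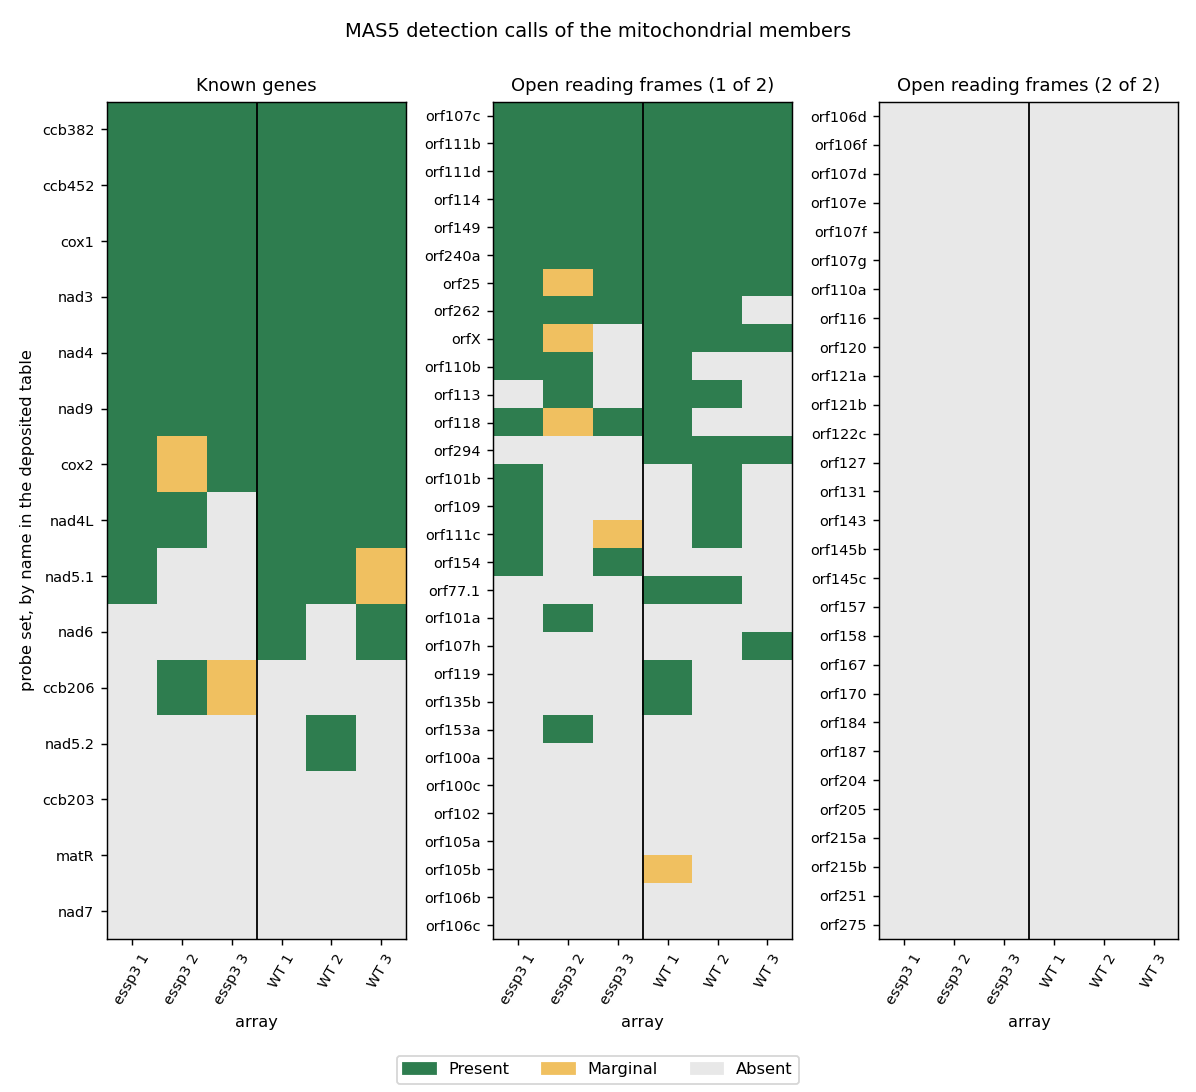
Detection calls of the 74 mitochondrial probe sets (vertical, known genes in the left panel, ORFs in the other panels) on each of the 3 essp3 and 3 WT arrays (horizontal). Green is Present, orange Marginal and grey Absent; 12 probe sets are green on all 6 arrays and 39 have no green cell.

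Signals of the tested mitochondrial probe sets mostly showed no called difference between essp3 and WT leaves. A probe set was called when its adjusted p was under 0.05 in a limma fit over all 13626 tested probe sets. Of the 9 known genes tested, none was called higher in essp3 and 2, cox1 and nad5.1, were called lower. Of the 12 ORFs tested with Present calls in both genotypes, none was called higher and 1, orf114, was called lower. The remaining tested ORF, orf294, was also called lower, but it passed the detection filter through the WT arrays alone, where it is high, so its call adds no support. At an unadjusted p under 0.05, 1 known gene was higher and 2 lower, and 1 ORF was higher and 3 lower (orf294 among these); over the whole array 19.8% were higher and 19.6% lower. By an unmoderated test on linear signals, 0 members were higher and 2 known genes and 1 ORF lower before adjustment. After it, 1 ORF remained lower. Of all 13626 tested probe sets, that test gave 2274 higher and 2201 lower before adjustment, and 900 higher and 794 lower after it. In the limma fit, 14.4% of tested probe sets over the whole array were called higher and 13.9% lower, 28.4% together. The 3 of 21 mitochondrial probe sets called that were Present in both genotypes make 14.3%, all of them lower, and the difference from the whole array was not tested. With all 74 in the fit and no filter on detection, none was called higher and 2 were called lower, against 7.57% and 7.08% of all 22746 probe sets. In total RNA of whole leaves, fewer mitochondria or cells of a type and less RNA per cell cannot be told apart.

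The typical difference was near 0. On the log2 scale, essp3 minus WT, the median was 0.079 over the 9 known genes, with a range of -1.12 to 0.54. Over the 13 ORFs it was -0.072, with a range of -1.78 to 0.65, and over all tested probe sets -0.0059. The 13 ORFs include orf294, which sets the low end of that range, and the next lowest was orf114 at -1.12. No median without orf294 was taken. The medians of known genes and ORFs moved with single arrays. Leaving out 1 array at a time gave -0.10 to 0.21 for the known genes and -0.48 to -0.080 for the ORFs. The known genes' median turned negative without essp3 replicate 3 (-0.074), WT replicate 2 (-0.10) or WT replicate 3 (-0.053). The ORFs' lowest median came without WT replicate 3, and it was -0.24 without essp3 replicate 1.

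At the median, mitochondrial probe sets varied more between arrays than the whole array did. The standard error (SE) of the log2 difference had a median of 0.28 over the 22 tested, against 0.18 over all tested probe sets. The median SD between arrays of a genotype was 0.34 for the known genes and 0.33 for the ORFs, against 0.21 over all tested. The members also had lower signals. The median of the mean WT signals was 212 over the 22 tested, against 562 over all tested. The part of low signal in the larger spread was not tested. Each array's median deviation from the probe sets' own means, in log2 units over the known genes, was -0.0026, -0.0019 and -0.21 on the essp3 arrays, against 0.21, 0.061 and 0.073 on the WT arrays. Over the ORFs, orf294 included, it was -0.096, -0.055 and -0.14 on the essp3 arrays, against 0.090, 0.36 and -0.085 on the WT arrays. For the known genes every essp3 value lay below every WT value, although the median of their fitted differences was 0.079, of the other sign. For the ORFs the 2 genotypes overlapped, because WT replicate 3 lay among the essp3 arrays.

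**Figure D2:**
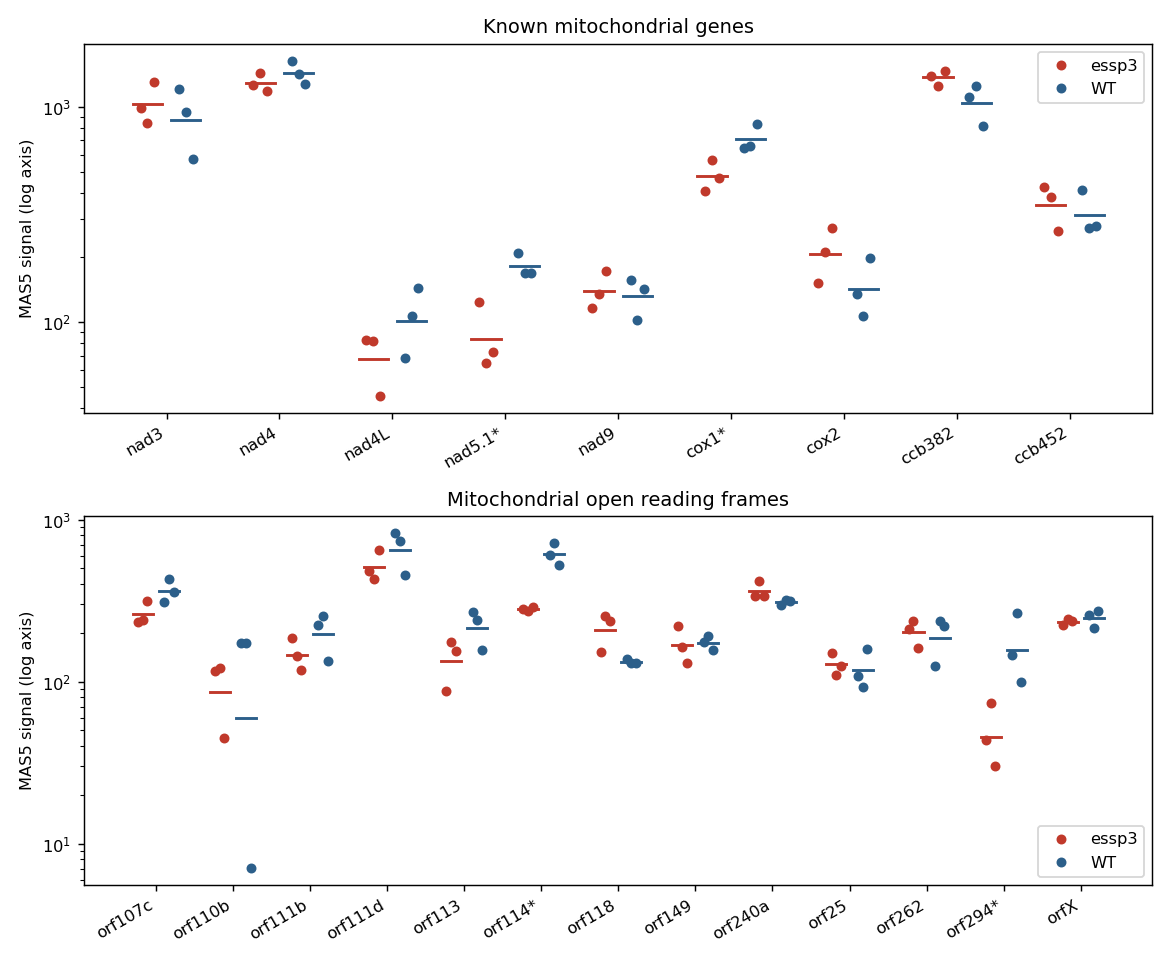
MAS5 signal (vertical, log axis) of each tested mitochondrial probe set on the essp3 arrays (red, left) and the WT arrays (blue, right); points are arrays, bars are geometric means of 3 arrays and an asterisk marks a called probe set. In cox1, nad5.1, orf114 and orf294 all red points lie below all blue points.

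Complex I, NADH dehydrogenase, passes electrons from NADH to ubiquinone, and its mitochondrially encoded subunits carry nad names. Of 8 nad probe sets, 5 were tested and nad5.1 was the 1 called lower. The nad5 mRNA is assembled by trans-splicing of separately transcribed pieces. The nad5.1 probe set read 124, 64.4 and 72.9 in essp3, against 210, 170 and 169 in WT. Every essp3 array lay below every WT array, by a log2 difference of -1.12 (SE 0.35, 95% interval -1.88 to -0.36, adjusted p = 0.0289). It was Present on 1 essp3 array and 2 WT arrays, so most of the essp3 values are of uncertain size. The call ended without essp3 replicate 2 (adjusted p = 0.0910), essp3 replicate 3 (0.0665), WT replicate 1 (0.106) or WT replicate 2 (0.0697), and also without the detection filter (0.0870).

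A second probe set of the same gene did not separate the genotypes. The nad5.2 probe set read 98.005, 70.2 and 57.4 in essp3, against 116, 62.2 and 62.3 in WT. It was Present on 1 WT array only and was not tested, and its genotypes overlapped. The nad5.1 probe set carries the suffix for probes shared between transcripts, which nad5.2 lacks.

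The other tested nad transcripts were not called. The nad3 probe set read 985, 839 and 1305 in essp3, against 1203, 941 and 572 in WT (log2 difference 0.25, interval -0.26 to 0.75, adjusted p = 0.476). The nad4 probe set read 1255, 1430 and 1178 in essp3, against 1634, 1420 and 1281 in WT (-0.16, interval -0.47 to 0.14, adjusted p = 0.425). In both, the genotypes overlapped. For nad4L the signals were 82.8, 81.8 and 45.6 in essp3, against 68.6, 107 and 144 in WT (-0.59, interval -1.63 to 0.45, adjusted p = 0.398). For nad9 they were 116, 136 and 172 in essp3, against 157, 102 and 143 in WT (0.079, interval -0.61 to 0.76, adjusted p = 0.883). The width of the nad4L interval leaves changes of either sign within it. Without WT replicate 3, nad3 had -0.053; nad9 had -0.074 without essp3 replicate 3 and -0.10 without WT replicate 2.

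Of the remaining nad probe sets, nad6 read 51.5, 66.9 and 61.1 in essp3, against 67.9, 101 and 122 in WT, with Present calls on 2 WT arrays only. All its essp3 signals lay below the WT signals, although the closest pair nearly touched. Among all probe sets not tested, 4.63% had every essp3 array below every WT array. The nad7 probe set was Absent throughout, at 30.6 ± 18.2 in essp3 and 34.8 ± 19.7 in WT (mean ± SD, n = 3 each).

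Complex IV, cytochrome c oxidase, reduces oxygen at the end of the chain, and its core subunits are encoded in the mitochondrion. The cox1 probe set, for the subunit that holds the oxygen-reducing centre, read 407, 564 and 467 in essp3, against 642, 660 and 832 in WT. All essp3 arrays lay below all WT arrays, and all 6 were called Present. The log2 difference was -0.57 (SE 0.17, interval -0.94 to -0.20, adjusted p = 0.0236), or 0.672 of the WT geometric mean. Its call ended without essp3 replicate 1 (adjusted p = 0.0957), essp3 replicate 3 (0.0581) or WT replicate 3 (0.0867), and without the variance trend (0.0525). The cox2 probe set, for the subunit that takes electrons from cytochrome c, read 152, 212 and 273 in essp3, against 135, 108 and 198 in WT. Its genotypes overlapped (0.54, SE 0.31, interval -0.13 to 1.21, adjusted p = 0.219). The difference between the cox1 and cox2 responses was not tested.

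The ccb genes encode parts of the machinery that attaches haem to cytochrome c. The ccb382 probe set read 1392, 1253 and 1464 in essp3, against 1115, 1244 and 810 in WT. Every essp3 array lay above every WT array, although the lowest essp3 and the highest WT signals were nearly equal. The difference was not called (0.39, SE 0.16, adjusted p = 0.0894; 0.0517 to 0.314 over the alternatives). The ccb452 probe set read 425, 383 and 266 in essp3, against 412, 275 and 278 in WT (0.15, interval -0.34 to 0.64, adjusted p = 0.656). Neither of the other ccb probe sets was tested. The ccb206 signals were 186, 159 and 111 in essp3, with 1 Present and 1 Marginal call, against 111, 42.4 and 118 in WT, with none. The Absent ccb203 averaged 48.7 ± 33.6 in essp3 and 52.7 ± 47.8 in WT (SD, n = 3 each). The maturase gene matR, which lies within an intron of nad1 and acts in group II intron splicing, was Absent on all arrays at 15.2, 9.92 and 10.02 in essp3, against 66.6, 8.78 and 42.2 in WT. For the Absent probe sets, no level in either genotype can be read.

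The orf114 probe set had the lowest adjusted p among the mitochondrial transcripts. It read 281, 274 and 288 in essp3, against 606, 713 and 525 in WT, with Present calls on all 6 arrays. The essp3 arrays nearly coincided and lay at 0.461 of the WT geometric mean. Its log2 difference was -1.12 (SE 0.17, interval -1.49 to -0.75, adjusted p = 0.000325). The call was made under all 16 alternatives, with adjusted p between 6.37e-05 and 0.0398. Among these, the series matrix held identical values and could not change the call. The files name no function for this ORF, and its probe set carries the suffix for probes shared between transcripts.

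The orf294 probe set read 43.6, 73.5 and 30.1 in essp3, against 146, 266 and 99.5 in WT. It was Present on all 3 WT arrays and on no essp3 array, so it entered the test through the WT arrays alone and a lower essp3 level was favoured by that filter. Only the essp3 replicate 3 signal lay below the lowest Present signal of its array, and it was raised to that value. The WT geometric mean was then 2.91-fold that of essp3. The signals of essp3 replicates 1 and 2 entered as measured although Absent, so 2.91 is not a lower limit. The fitted log2 difference was -1.78 (SE 0.52, 95% interval -2.89 to -0.67, adjusted p = 0.0199). The call ended without essp3 replicate 3 (adjusted p = 0.0514) or WT replicate 2 (0.148), and without the detection filter (0.0508). With an unmoderated test on linear signals orf294 (adjusted p = 0.197), cox1 (0.130) and nad5.1 (0.0761) were not called, and orf114 was.

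**Figure D3:**
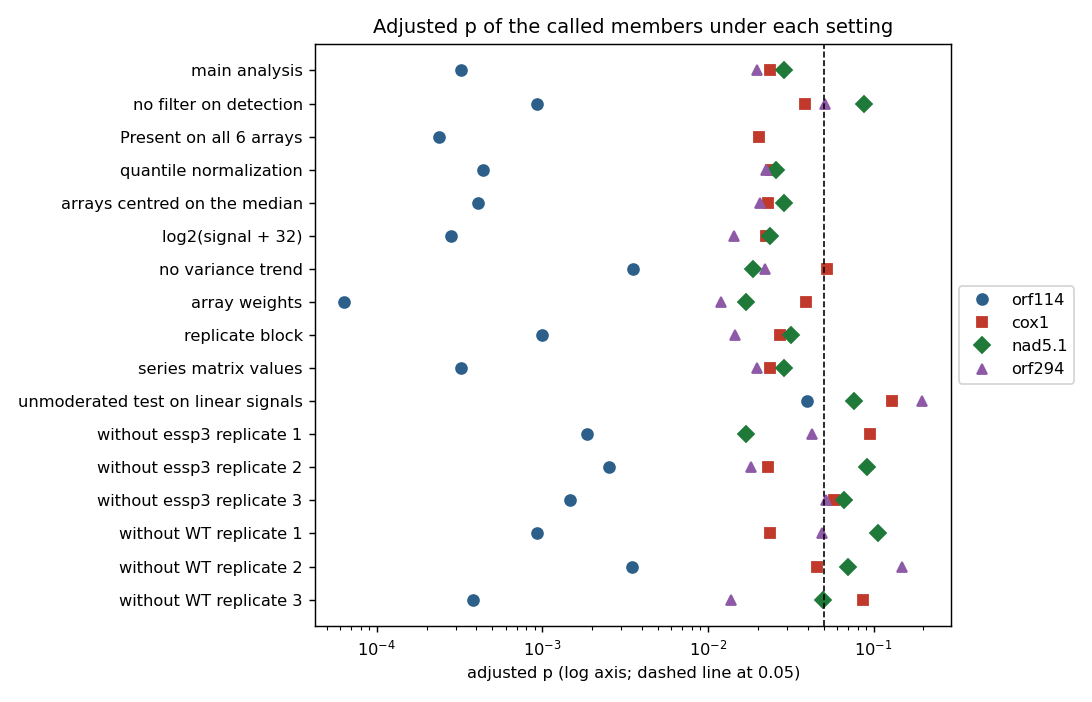
Adjusted p (horizontal, log axis, dashed line at 0.05) of the 4 called mitochondrial probe sets under each setting of the analysis (vertical). All orf114 points lie left of the line, and cox1, nad5.1 and orf294 each cross it under some settings; nad5.1 and orf294 have no point where Present calls on all 6 arrays were required.

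A pair of the tested ORFs have a known product. The orf25 gene, now called atp4, encodes a subunit of the membrane part of ATP synthase, and it read 151, 110 and 126 in essp3, against 109, 92.2 and 160 in WT (0.13, interval -0.62 to 0.87, adjusted p = 0.822). The orfX gene, mttB, encodes a protein related to a component of the twin-arginine transport system. It read 225, 242 and 237 in essp3, against 256, 215 and 272 in WT (-0.072, interval -0.52 to 0.37, adjusted p = 0.831). The genotypes overlapped for both. The orf25 difference was -0.047 without WT replicate 2.

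The other 9 ORFs tested were not called, and those named next were chosen after their values were seen. In 2 of them every essp3 array lay above every WT array. The orf118 probe set read 152, 255 and 236 in essp3, against 138, 130 and 131 in WT (0.65, SE 0.28, adjusted p = 0.0993). It was called higher without essp3 replicate 1 (adjusted p = 0.0448). The orf240a probe set read 336, 416 and 335 in essp3, against 299, 319 and 316 in WT, a gap smaller than the spread of the essp3 arrays (0.21, SE 0.18, adjusted p = 0.410). In the other direction, orf107c read 233, 241 and 313 in essp3, against 309, 427 and 358 in WT. Its groups overlapped by a narrow margin (-0.48, SE 0.20, adjusted p = 0.0997), and it was called lower with array weights (adjusted p = 0.0322). The orf113 probe set had -0.69 (adjusted p = 0.129), orf111b -0.42 (adjusted p = 0.335) and orf111d -0.35 (adjusted p = 0.269; called lower without WT replicate 3, at 0.0346).

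The orf110b probe set was decided by 1 array. It read 117, 121 and 44.6 in essp3, against 172, 173 and 7.04 in WT. It was called Absent on essp3 replicate 3 and on WT replicates 2 and 3. The signal on WT replicate 3 was far below those on the other arrays. The log2 difference was 0.53 (SE 0.99, adjusted p = 0.730), and -1.01 without that array. The last 2, orf149 and orf262, had -0.050 and 0.11, with overlapping genotypes.

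**Figure D4:**
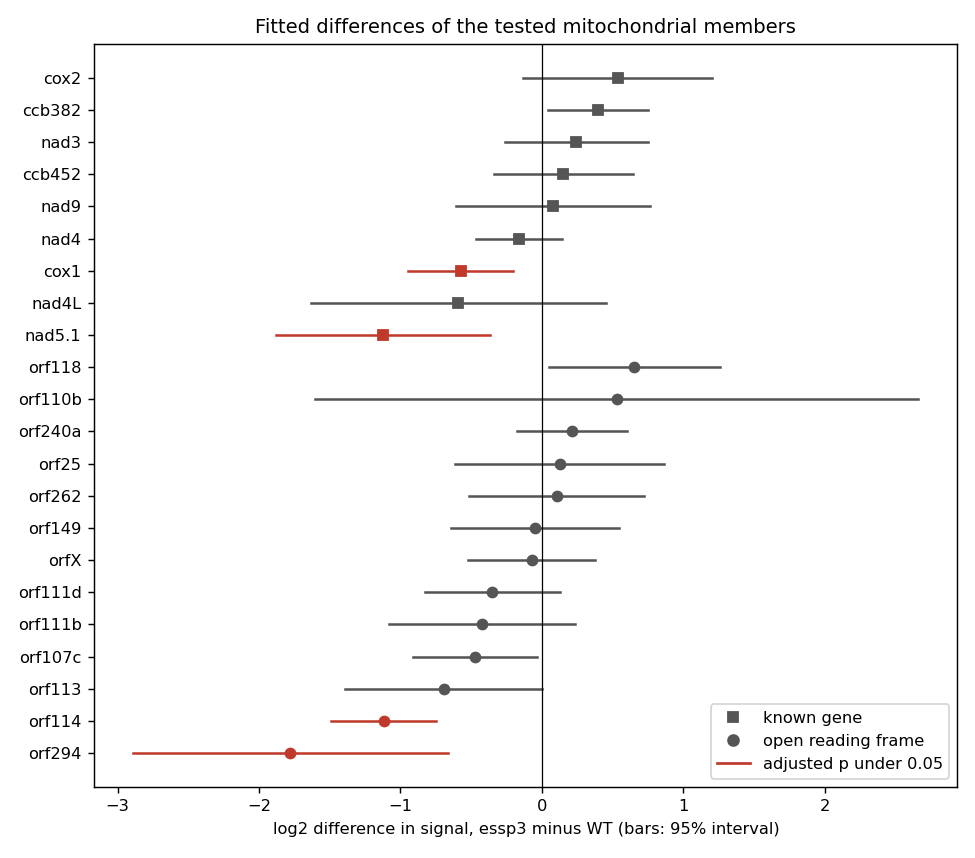
Log2 difference in signal, essp3 minus WT (horizontal), of the 22 tested mitochondrial probe sets, known genes as squares and ORFs as circles; bars are 95% intervals of the limma fit and red marks an adjusted p under 0.05. The intervals of cox1, nad5.1, orf114 and orf294 lie below 0 and none of the called probe sets lies above it. Of the probe sets not called, the interval of orf107c also lies below 0 and those of ccb382 and orf118 lie above it.

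Across the 22 tested probe sets the genotypes did not overlap for 7 (31.8%): essp3 lay below WT for cox1, nad5.1, orf114 and orf294, and above it for ccb382, orf118 and orf240a. Of these, orf294 had passed the filter through WT alone. Over all tested probe sets 42.7% did not overlap, 21.6% with essp3 below and 21.1% with essp3 above. Among the 52 not tested, essp3 lay below WT for nad6 and orf77.1 and above it for orf110a, orf131, orf167 and orf204. That is 6 of 52. Of all untested probe sets 12.9% did not overlap, 4.63% with essp3 below and 8.25% with essp3 above. The 4 ORFs with higher essp3 signals were Absent on all arrays, and their signals ran from 1.46 to 98.4. The orf77.1 probe set read 57.4, 4.96 and 71.1 in essp3, against 165, 258 and 99.5 in WT, with Present calls on 2 WT arrays. Its name was not among the mitochondrial genes of the RefSeq table, and its probe set number lies between those of 2 chloroplast genes, so its genome of origin is uncertain.

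In the authors' deposited table, 2 of the 15 known genes had an unadjusted p under 0.05, namely nad5.1 (p = 0.0142, ratio of mutant to wild type 0.477) and cox1 (p = 0.0375, ratio 0.673). Of the 59 ORFs only orf114 did in the authors' deposited table (p = 0.00367, ratio 0.457), whereas orf294 had p = 0.0767. Over all probe sets 22.2% had a deposited p under 0.05.

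Mitochondrial genes also appear on the array under nuclear locus codes, because chromosome 2 of the Columbia strain carries a large insertion of mitochondrial DNA. A set of 12 codes was selected within a window of neighbouring locus codes on chromosome 2, by title words and by the suffix for shared probes. The title words were cytochrome, ATP synthase, ATPase subunit and ribosomal protein. Not every title names the mitochondrion, and that of AT2G07725 is 60S ribosomal protein L5. They lie outside the rule and were picked out after values had been seen. The suffix was a condition of the selection, so codes without it were not looked at. With shared probes, organelle and nuclear copies cannot be told apart. The same suffix is carried by 7 of the 22 tested members, nad5.1 and orf114 among them, and which transcripts share their probes was not looked up. Of the 8 chromosome 2 codes tested, 1 was called higher and 3 lower, with a median log2 difference of -0.40. That is 50% called, against 28.4% over the whole array, and the difference was not tested. The cytochrome b code AT2G07718 read 176, 177 and 170 in essp3, against 403, 328 and 428 in WT (-1.14, adjusted p = 0.000972). A second code for cytochrome b, the haem protein at the core of complex III, AT2G07727, was not called (-0.45, adjusted p = 0.160).

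The ATP synthase alpha subunit code AT2G07698 read 881, 914 and 867 in essp3, against 1343, 1595 and 1088 in WT (-0.58, adjusted p = 0.0125; 0.0707 without WT replicate 2 and 0.128 with the unmoderated test). The ribosomal protein L5 code AT2G07725 had -1.01 (adjusted p = 0.0162), a call that ended without essp3 replicate 2 (0.0671) or WT replicate 2 (0.0590), without the detection filter (0.0536) and with the unmoderated test (0.0637). The 1 code called higher was AT2G07695, titled as cytochrome c oxidase subunit II, at 371, 351 and 382 in essp3, against 241, 295 and 195 in WT (0.61, adjusted p = 0.0360). Its difference has the sign of the uncalled cox2 probe set described above. It was no longer called when any essp3 array, WT replicate 1 or WT replicate 3 was left out (adjusted p 0.0645 to 0.108), nor without the detection filter (0.0888), with array weights (0.0567) or with the unmoderated test (0.0775). The codes for cox3 (AT2G07687, -0.092), atp6 (AT2G07741, -0.15) and ribosomal protein S4 (AT2G07734, -0.34) were not called.

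A further pair of probe sets is named for the mitochondrion without meeting the rule. The one named rpl16.mitochondria, for a ribosomal protein, read 868, 1012 and 1048 in essp3, against 862, 1078 and 862 in WT (0.067, adjusted p = 0.777). The one named mitochondria.1 read 1151, 1253 and 1042 in essp3, against 1346, 1293 and 1364 in WT (-0.22, adjusted p = 0.239). Neither was called, although the second did not overlap between genotypes.

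The other organelle genome gave a different count. Of 55 chloroplast-encoded transcripts, 52 were tested, 2 were called higher in essp3 and 26 lower, with a median log2 difference of -0.34. That is 53.8% called, against 28.4% over the whole array. Among the mitochondrial probe sets Present in both genotypes the counts were 0 higher and 3 lower of 21. Chloroplast probe sets had a median SE of 0.13, against 0.28 for the mitochondrial ones, so smaller differences could be called among them. Their signals were also far higher, with a median of mean WT signals of 11601, against 212 for the mitochondrial ones. The difference between the 2 organelles was not tested.

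**Figure D5:**
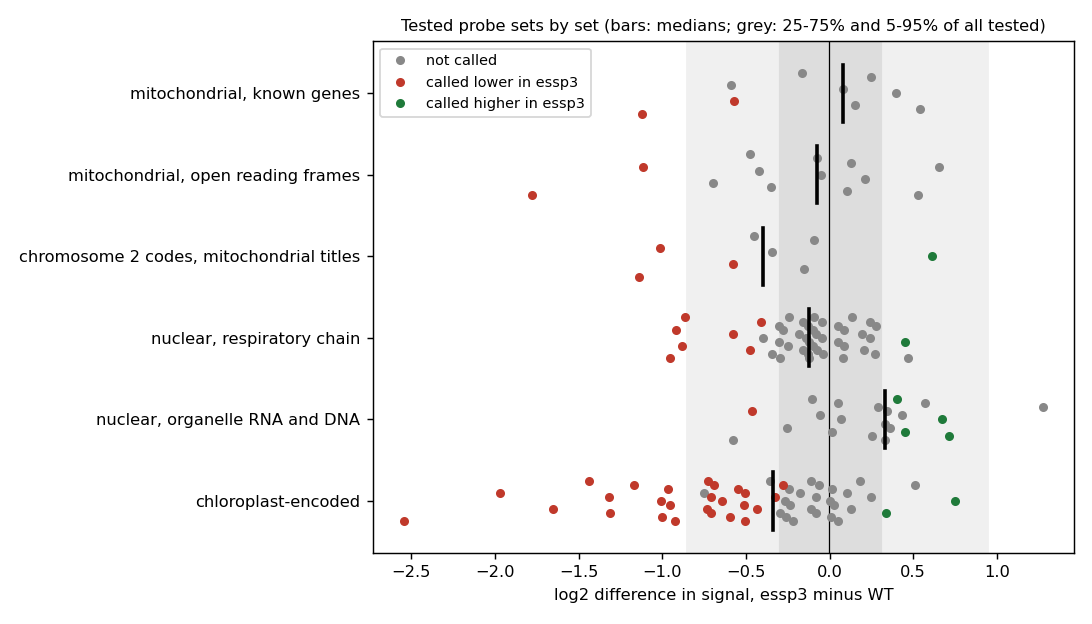
Log2 difference, essp3 minus WT (horizontal), of tested probe sets in 6 sets (vertical); points are probe sets, black bars medians, and the grey bands hold the central 50 and 90 percent of all tested probe sets. The mitochondrial medians of 0.079 and -0.072 lie near 0, and the chloroplast median is -0.34.

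Nuclear genes for complexes I to IV, cytochrome c and ATP synthase were looked up by locus code. The known mitochondrial genes among the members include none for complex II or III. Of 45 tested, 1 was called higher and 7 lower, with a median log2 difference of -0.12. That is 17.8% called, against 28.4% over the whole array, and the difference was not tested. Complex I had 0 higher and 1 lower of 14, namely AT5G11770, a subunit gene with -0.48 (adjusted p = 0.00594). Complex II, succinate dehydrogenase, had 3 lower of 4: the iron-sulphur subunit genes SDH2-1 (-0.95, adjusted p = 0.000269) and SDH2-2 (-0.92, adjusted p = 0.000350), and the membrane anchor gene SDH4 (-0.87, adjusted p = 0.000161). None of 10 genes for complex III and cytochrome c was called, with 1 higher and 1 lower at an unadjusted p under 0.05. The nearest was MPPBETA, for a processing peptidase subunit that is part of complex III (0.28, adjusted p = 0.1004). Complex IV had 2 lower of 10, the subunit genes AT3G15640 (-0.88, adjusted p = 0.00113) and AT4G37830 (-0.41, adjusted p = 0.0246; not called without essp3 replicate 2, at 0.144, or WT replicate 2, at 0.0826). ATP synthase had 1 higher and 1 lower of 7. AT5G08690, a beta subunit gene, had 0.45 (adjusted p = 0.0232; not called without essp3 replicates 1 or 2 or WT replicate 3, at 0.0525 to 0.109), and AT1G51650, the epsilon subunit gene, had -0.58 (adjusted p = 0.00625).

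Nuclear genes that act on organelle RNA and DNA were called higher 4 times and lower 1 time among 21 tested, with a median log2 difference of 0.33. That is 23.8% called, against 28.4% over the whole array, and the difference was not tested. Neither polymerase gene tested was called, at an adjusted or an unadjusted p: MGP3, of the mitochondrial enzyme, had 0.071 (adjusted p = 0.812) and SCA3, of the plastid enzyme, 0.25 (adjusted p = 0.328). Of 6 splicing factor genes, AT5G46920, an intron maturase gene, was called lower (-0.47, adjusted p = 0.0444), and was no longer called on dropping any 1 array (0.0572 to 0.137), under the replicate block (0.0648), without the detection filter (0.0746), without the variance trend (0.0567) or with array weights (0.0674). Of 3 genes for RNA ends and decay, ATSUV3, which encodes an RNA helicase, was called higher (0.71, adjusted p = 0.0202; not called without essp3 replicates 1 or 2 or WT replicate 2, at 0.0611 to 0.0704). Of 5 editing factor genes, MORF3 was called higher (0.45, adjusted p = 0.0248), but not when any essp3 array or WT replicate 1 was left out (0.0527 to 0.0781). Of 5 genes for DNA maintenance, GYRA, a gyrase subunit, had 0.67 (adjusted p = 0.0163; 0.0841 without essp3 replicate 1). ATWHY2, a DNA-binding protein of mitochondria, had 0.41 (adjusted p = 0.0414), and was not called once any 1 array other than essp3 replicate 3 was dropped (0.0681 to 0.158) and under the replicate block (0.0583).

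Of 6 mitochondrial stress response genes tested, 1 was called higher (16.7%, against 14.4% called higher over the whole array). It was DIC2, a dicarboxylate carrier gene, at 860, 929 and 669 in essp3, against 307, 229 and 557 in WT (1.26, SE 0.26, adjusted p = 0.00289). At an unadjusted p under 0.05 in the limma fit, 4 of the 6 were higher and 0 lower. Over the whole array 19.8% were higher and 19.6% lower. All 6 had a positive log2 difference, with a median of 0.47, and the difference from the whole array was not tested. AOX1A, for the alternative oxidase, had 0.47 (adjusted p = 0.0660; 0.00555 without WT replicate 1 and 0.0233 under the replicate block), and the alternative NADH dehydrogenase gene NDB2 had 0.48 (adjusted p = 0.0720). Of the nuclear genes called, an unmoderated test on linear signals ended the calls of DIC2 (adjusted p = 0.0974), GYRA (0.141), ATWHY2 (0.112), AT5G46920 (0.0977), AT1G51650 (0.0943), AT5G08690 (0.176) and AT4G37830 (0.104). Without the variance trend, ATWHY2 (0.0801), AT5G08690 (0.0909) and AT4G37830 (0.0924) were not called either, and without the detection filter ATSUV3 (0.0668) and AT4G37830 (0.0528) were not.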

How the data were processed

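Total RNA of 3 essp3 and 3 WT samples was measured on Affymetrix ATH1 arrays. The authors deposited MAS5 intensity values (per the submitters' processing notes), scaled per array to a mean of 1000, with detection calls, a ratio of mutant to wild type and an unpaired p-value, per the file headers. No source used here gives the MAS5 settings, and depth does not apply to arrays: their number limits the precision. The series matrix held identical values. The 62 control probe sets were set aside. Log2 signals, with no offset, were fitted with limma 3.58.1 in R 4.3.3 (eBayes with trend), two-sided, over 13626 probe sets Present on at least 3 of 6 arrays, with Benjamini-Hochberg adjustment over all of them and a threshold of 0.05. An exact permutation test of 3 against 3 cannot go below a p of 0.1, so none was run. The fit was tested on simulated data. The fold given for orf294 replaces signals of a genotype without Present calls by the lowest Present signal of the array where that is higher.

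The members and the 14 gene lists were chosen with earlier results of these data known. Named were all known genes, ORFs called without overlap between genotypes, and up to 3 genes per list with the smallest adjusted p; other names are said to be outside this. Alternatives changed the filter, normalization, offset, variance model, weights, block, value source, test or the arrays included.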

Additional observations from a re-analysis of the deposited data

How the results depend on the processing

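The whole-array count of 3865 called probe sets stayed within 1.5 times under all alternatives except an unmoderated test on linear signals (1694), with 2679 to 3638 when 1 array was left out. The 2 known genes called lower became 1 without the detection filter, with probe sets Present on all 6 arrays and without the variance trend, 0 under the unmoderated test, and 0 to 1 when 1 array was left out. The ORFs called higher numbered 0 to 1 when 1 array was left out. The 2 ORFs called lower, orf294 included, became 1 without the filter, with Present on all 6 arrays and under the unmoderated test, and 1 to 3 when 1 array was left out. The known genes' median of 0.079 was -0.063 without the filter and -0.10 to 0.21 with 1 array left out. The ORFs' median of -0.072 was 0.13 without the filter, -0.39 with Present on all 6 arrays, -0.32 under the unmoderated test and -0.48 to -0.080 with 1 array left out. The filters and left-out arrays change which probe sets or arrays enter; for the variance trend and the unmoderated test the cause was not tested. Quantile normalization, median centring, an offset of 32, array weights and the replicate block left the calls of cox1, nad5.1, orf114 and orf294 in place. The series matrix held identical values, so that setting could only repeat the main calls. Of 22 tested members, 6 changed sign in at least 1 setting and 10 kept sign and call in all settings run.

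Signs reversed for 6 members when 1 array was left out, over ranges of -0.047 to 0.35 for orf25, -0.24 to 0.13 for orf149 (0.021 without WT replicate 2), -0.053 to 0.48 for nad3, -0.10 to 0.21 for nad9 (-0.074 without essp3 replicate 3), -1.01 to 1.30 for orf110b and -0.18 to 0.27 for orf262 (-0.0072 without essp3 replicate 2). Under the unmoderated test orf110b had -0.32. Of the other genes, MGP3 ranged from -0.0049 to 0.16, the RNA processing gene AT1G06710 from -1.15 to 0.24, AT2G07687 from -0.32 to 0.26 (0.032 without WT replicate 3; 0.040 with array weights), AT2G07741 from -0.28 to 0.0061 and AT2G07734 from -0.63 to 0.092. None of these was called in the analysis reported.

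Replicate numbers did not pair the arrays: deviations of same-numbered arrays correlated at 0.023, 0.020 and 0.032, although every array correlated best with its own number. With the replicate block, 3737 probe sets were called, and 2 known genes and 2 ORFs remained lower. Signals near background limit what can be read: 39 of 74 probe sets had no Present call, and orf294 and nad5.1 had few in essp3. The array series and genotype cannot be told apart.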
